A study of Homo sapiens with 12 samples.

Results

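The cytochrome P450 genes of families 2 to 46 were examined in HepG2 cells at 0, 5, 10, 30 and 240 min after insulin stimulation. The members were the 49 genes, of 26364 named genes in the count table, whose symbol is CYP followed by a family number, a subfamily letter and a gene number, without the 7 genes CYP1A1, CYP1A2, CYP1B1, CYP51A1, CYP7A1, CYP8B1 and CYP27A1. The HepG2 line comes from a human liver tumor, so that each group is 1 transformed cell line and not normal liver. The RNA-seq libraries numbered 10, with 2 replicates at each of the 5 times, and 1 insulin receptor (IR) ChIP-seq library of the same line was also used. Per the labels, the RNA-seq cells had been grown with serum and then held in EMEM medium overnight before stimulation, whereas the ChIP-seq cells had been kept in EMEM and then in EMEM with insulin and albumin for 2 days each, washed, and stimulated with 3 nM insulin. The general methods of the study describe the longer schedule for HepG2 cells and do not name the overnight one, so that the labels were followed here. The treatment text deposited with the RNA-seq libraries names EMEM with bovine serum albumin, 3 nM insulin and a time of 5 min for all 10, including those at 0 min, whereas the titles give the times used here. The extraction texts of the RNA-seq and ChIP-seq libraries name DNA and RNA kits the other way round. The comparisons ask how the transcripts of these enzymes moved over the insulin time course, with the 0 min libraries as the unstimulated reference. The methods of the study call the RNA-seq samples biologically independent and the experiment a single one, so that the p-values measure the spread within that experiment.

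P450 enzymes hold a heme iron with which they insert an atom of oxygen into small lipophilic molecules. Most of them sit in the endoplasmic reticulum and take their electrons from the reductase POR, while a few sit in mitochondria and take them from the ferredoxin FDX1 and its reductase FDXR. Liver P450 enzymes of families 2 and 3 clear drugs and other foreign compounds, those of family 4 and some of family 2 oxidize fatty acids and eicosanoids, and the higher families make or break down vitamin D, retinoic acid, oxysterols and steroid hormones. Hepatocytes are the richest source of the drug-metabolizing members, and cell lines such as HepG2 are known to hold much less of these than liver does.

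Between 18347109 and 45005769 reads were counted on genes per library, and the members took 0.0267% to 0.0297% of them. The 2 libraries of each time differed beyond counting error (chi-square divided by its degrees of freedom 2.86 to 6.46) and entered as 2 samples. The summed level of 8 hepatocyte markers such as ALB and APOA1 was 40179 to 50712 TPM in every library, while PTPRC, CD3E and HBB of the blood cell list were listed at 0 throughout and CD14 reached 1.10 TPM at most. The 3 endothelial markers summed to 0.958 to 2.07 TPM with both 240 min libraries at the top. The 4 fibroblast or stellate markers, mostly ACTA2, summed to 65.5 to 102 TPM with the 240 min libraries low at 65.5 and 71.9 TPM, and the lowest hepatocyte sum was also in a 240 min library, the other being at 49970 TPM. The part of these levels in the results below was not tested. In such bulk libraries fewer expressing cells and less RNA per cell cannot be told apart.

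Levels of different genes were compared in TPM, which divides by transcript length and by library size. The highest mean over the 10 libraries belonged to CYP4F11 at 28.0 ± 1.81 TPM (SD, n = 10 libraries of 5 times) and to CYP2W1 at 26.2 ± 2.34 TPM, an enzyme better known from colon tumors than from liver. They were followed by CYP4F12 at 22.0 ± 1.98, CYP4F3 at 19.5 ± 1.43, CYP4F2 at 19.3 ± 3.46, CYP20A1 at 16.7 ± 1.49, CYP3A5 at 14.9 ± 3.63, CYP2J2 at 14.5 ± 2.49 and CYP4V2 at 10.0 ± 1.17 TPM. Neighbours in that order had overlapping ranges over the libraries, so that the order within it is loose. The fatty acid oxidizing CYP4F genes thus held 4 of the 5 highest levels. A middle tier held CYP2S1 at 7.13 ± 1.396, CYP19A1 at 7.03 ± 0.859, CYP3A7 at 6.65 ± 1.154, CYP2U1 at 6.51 ± 1.38, CYP17A1 at 3.99 ± 0.923, CYP24A1 at 3.61 ± 0.902, CYP21A2 at 3.49 ± 1.46, CYP27B1 at 1.53 ± 0.337 and CYP2R1 at 1.504 ± 0.433 TPM. CYP3A4, the main drug-metabolizing P450 of adult liver, had only 1.29 ± 0.228 TPM, below its fetal relative CYP3A7 and below CYP3A5 in every library.

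**Figure D1:**
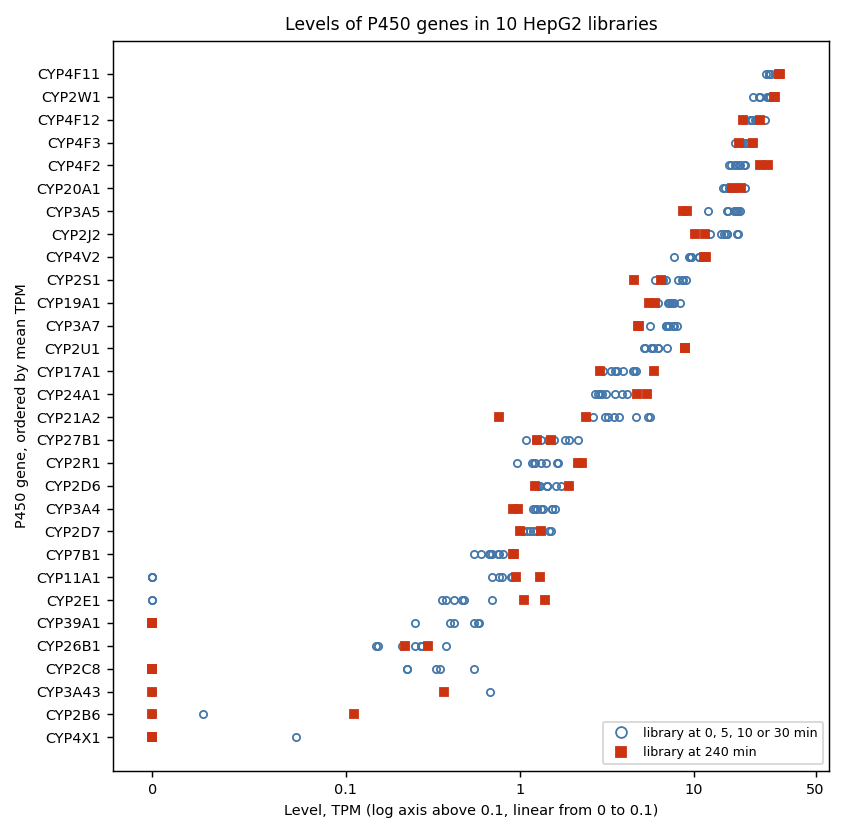
Level in TPM (horizontal axis, logarithmic above 0.1) of the 30 P450 genes with a TPM above 0 in at least 1 library, each point 1 of 10 libraries, with circles for 0 to 30 min and squares for 240 min. The levels ran from CYP4F11 at the top to genes such as CYP2B6 and CYP4X1 that were listed at 0 in most libraries, where points lie on top of each other.

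Not every member could be judged. A filter on low counts (filterByExpr) was passed by 26 of the 49 members (53.1%), near the 52.5% of all genes that passed it. No count in any library was found for 12 members, among them CYP2A6, CYP2A7, CYP2A13, CYP2C19, CYP2D6 and CYP2F1 of the xenobiotic group, the aldosterone and cortisol synthases CYP11B2 and CYP11B1, CYP26C1, CYP27C1 and CYP4Z1. A count of 0 allows up to 3 counts, which is 0.0674 to 0.158 CPM depending on the library and covers counting error only. A further 11 members had a few counts and were too low to test. CYP2C8, which oxidizes drugs and arachidonic acid, came closest with 4 to 13 counts per library and 66 in all, and it had 5 counts in each library at 240 min. The other 10 had 1 to 8 counts over all libraries together, and they were CYP2B6, CYP2C18, CYP4X1, CYP26A1, CYP4B1, CYP4A22, CYP4F8, CYP46A1, CYP4A11 and CYP4F22. All 5 CYP4 genes on chromosome 1 that the rule takes were among the members not tested. Of the 6 CYP2 genes on chromosome 19, which span 364.0 kb, CYP2S1 alone was tested.

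CYP2D6, which clears many antidepressants and opioids, cannot be judged from these files. It had 0 counts in every library, yet its abundance was 1.22 to 1.93 TPM. On hg19 the gene (chromosome 22, 42522501 to 42526883, minus strand) is overlapped on the same strand by LOC101929829, which also had 0 counts, and 51.0% of the 50-base windows of its transcripts occur in transcripts of other genes, mostly its neighbour CYP2D7. How reads were assigned between them was not tested.

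No member passed the test in the first 30 min. At 5, 10 and 30 min against 0 min, 0 of 26 members had an adjusted p under 0.05 by edgeR's quasi-likelihood test, where 0%, 0.137% and 0.332% of all 13852 genes tested were called. An unadjusted p under 0.05 was found for 5 members at 5 min, namely CYP2S1, CYP2W1, CYP20A1, CYP2U1 and CYP4V2 (19.2% against 14.3% of all genes), for CYP24A1 at 10 min (3.85% against 5.13%) and for CYP2J2 at 30 min (3.85% against 8.12%). DESeq2 and every other setting of the fit also called 0 members at these times. The largest of the differences with an unadjusted p under 0.05 was CYP24A1 at 10 min, at 0.42 on the log2 scale (SE 0.158, adjusted p = 0.782), and the smallest was CYP4V2 at 5 min, at 0.20 (SE 0.0941, adjusted p = 0.349).

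At 240 min the members moved both ways. Of the 26 tested, 14 were called against 0 min (53.8%), with 7 higher and 7 lower. The background was 41.0% of all tested genes, with 20.6% higher and 20.4% lower. The median log2 fold change of the 26 was 0.071, beside -0.0026 for all genes, and single members ran from -1.25 to 1.29. The higher ones were CYP2E1, CYP2R1, CYP24A1, CYP2U1, CYP4F2, CYP4V2 and CYP4F11, and the lower ones were CYP3A4, CYP21A2, CYP3A7, CYP2S1, CYP3A5, CYP2J2 and CYP19A1. Both 240 min libraries lay outside the range of the other 8 libraries for 16 of the 26 members (61.5%), beside 44.7% of all tested genes. These 16 included CYP2W1, CYP7B1 and CYP11A1, which were not called, and left out CYP2S1, which was.

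The count rests on both replicates and on the scaling. Without replicate 1 at 240 min 7 members were called and without replicate 2 at 0 min 9, and DESeq2 called 8, with 4 higher and 4 lower. Scaling by the ERCC spike-ins, which put the median of all genes at -0.119, left 0 higher and 4 lower, namely CYP3A5, CYP2J2, CYP2S1 and CYP3A4, beside the 7 and 7 above. Each of the 14 kept its direction under that scaling, also relative to the shifted median.

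**Figure D2:**
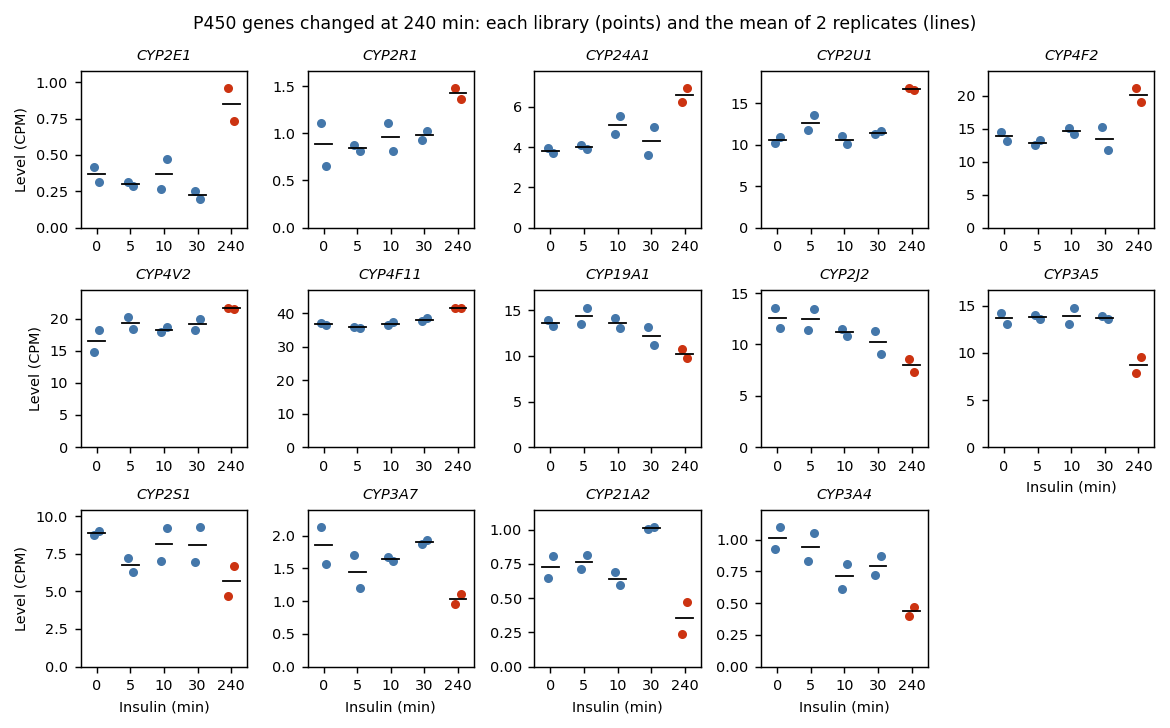
Level in CPM (vertical axis from 0) against minutes of insulin (horizontal axis, times in order and not to scale) for the 14 members called at 240 min, with 2 libraries per time as points and their mean as a line. CYP3A5 stayed between 13.0 and 14.8 CPM up to 30 min and was at 7.88 and 9.52 CPM at 240 min, while CYP2U1 went from at most 13.5 CPM to 16.8 and 16.6 CPM.

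Among the xenobiotic enzymes (16 members, 6 tested), CYP3A4, CYP3A5 and CYP3A7 fell, CYP2E1 rose, and CYP3A43 and CYP2D7 were not called. The CYP3A genes lie together on chromosome 7 of hg19 within 217.9 kb. CYP3A5 was the most abundant of them, and its libraries held 14.2 and 13.1 CPM (0 min), 14.1 and 13.6 (5 min), 13.0 and 14.8 (10 min), 13.9 and 13.6 (30 min) and 7.88 and 9.52 (240 min), where CPM is the read count scaled to library size with TMM factors. In CPM the 240 min libraries were the lowest, far from all others, and the first 8 libraries lay close together. In TPM the late CYP3A5 libraries were also the lowest, at 8.68 and 9.11. The first 8 spread more widely there, from 12.1 TPM in replicate 1 at 0 min to 18.4 TPM in replicate 1 at 5 min. Its mean was 13.7 ± 0.816 CPM (SD, n = 2) at 0 min and 8.70 ± 1.16 CPM (SD, n = 2) at 240 min, and its log2 fold change was -0.65 (SE 0.108, adjusted p = 7.91e-05), which passed the threshold in every setting tried.

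CYP3A4 had few reads. It was present at 0.928 and 1.10 CPM (0 min), 0.831 and 1.05 (5 min), 0.612 and 0.809 (10 min), 0.718 and 0.874 (30 min) and 0.400 and 0.473 (240 min), which is 10 and 9 reads in the 2 libraries at 240 min against 16 to 49 elsewhere. Both late libraries were below every other one. Its log2 fold change was -1.25 (SE 0.339, adjusted p = 0.00593). This call was lost without replicate 1 at 240 min (-1.13, adjusted p = 0.0759) and without replicate 2 at 0 min (-1.10, adjusted p = 0.0869), and its adjusted p ran from 0.00206 to 0.161 over the 11 alternatives that keep every library. In TPM the fall of CYP3A4 was smaller, from 1.26 and 1.53 at 0 min to 0.975 and 0.910 at 240 min. With limma on log2(TPM + 1) and log2(TPM + 0.1) the difference was -0.30 (adjusted p = 0.0885) and -0.51 (adjusted p = 0.131). The constants added on these scales shrink the change of low genes, but the TPM themselves also fell less than the counts. Why the 2 measures differ was not tested.

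CYP3A7, the form that dominates in fetal liver, held 2.13 and 1.57 CPM (0 min), 1.70 and 1.196 (5 min), 1.68 and 1.62 (10 min), 1.87 and 1.94 (30 min) and 0.960 and 1.10 (240 min). The late libraries were again the lowest, although the second library at 5 min came near them. The log2 fold change was -0.80 (SE 0.263, adjusted p = 0.0203). It was no longer called without replicate 1 at 240 min (-0.69, adjusted p = 0.152) or without replicate 1 at 0 min (-0.62, adjusted p = 0.116), with an adjusted p from 0.0102 to 0.0864 over the 12 alternatives that keep every library. Over these alternatives the CYP3A7 value ran from -0.93 to -0.31, with -0.31 and -0.36 by limma on log2(TPM + 1) and log2(TPM + 0.1), so that its size is loose. Of the 50-base CYP3A7 windows, 41.9% are shared with the readthrough transcript CYP3A7-CYP3A51P, which had 15 counts over all libraries. Reads could thus be split between them, and how this bears on the size was not tested. CYP3A43, the fourth gene of the cluster, had 0.468 ± 0.0592 CPM (SD, n = 2) at 0 min and 0.271 ± 0.0120 CPM (SD, n = 2) at 240 min and a log2 fold change of -0.73 (SE 0.480, adjusted p = 0.239), which did not pass. The ratio of CYP3A7 to CYP3A5 counts was 0.116 and 0.122 at 240 min, inside the range of 0.0880 to 0.150 in the other libraries, and that of CYP3A4 to CYP3A5 was 0.0497 and 0.0508, inside 0.0469 to 0.0840.

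The promoters of the 3 CYP3A genes that fell are printed here because they hold, whole or in part, a well known regulatory element of drug metabolism. The pregnane X receptor NR1I2 binds, with an RXR partner, to an everted repeat with 6 bases between its arms in the CYP3A4 promoter. Each line is the RefSeq sequence of GRCh38.p14 from 250 bases before to 50 after the transcription start, 5′ to 3′ on the gene's strand, which is the minus strand of chromosome 7. Capitals mark exact matches to TGAACTNNNNNNAGGTCA, to the right arm AGGTCA where the whole repeat does not match, and to TATAAA.
CYP3A4: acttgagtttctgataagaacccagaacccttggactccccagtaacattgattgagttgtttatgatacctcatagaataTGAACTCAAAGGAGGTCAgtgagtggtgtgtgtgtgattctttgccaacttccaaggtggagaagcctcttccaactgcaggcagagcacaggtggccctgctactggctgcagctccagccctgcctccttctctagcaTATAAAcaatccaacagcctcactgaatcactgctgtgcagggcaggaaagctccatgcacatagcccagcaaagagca
CYP3A5: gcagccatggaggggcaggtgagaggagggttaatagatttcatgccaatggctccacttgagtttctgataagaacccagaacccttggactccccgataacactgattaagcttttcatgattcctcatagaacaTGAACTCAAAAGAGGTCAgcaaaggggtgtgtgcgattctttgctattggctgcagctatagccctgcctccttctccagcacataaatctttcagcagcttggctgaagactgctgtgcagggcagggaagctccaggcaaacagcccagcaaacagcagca
CYP3A7: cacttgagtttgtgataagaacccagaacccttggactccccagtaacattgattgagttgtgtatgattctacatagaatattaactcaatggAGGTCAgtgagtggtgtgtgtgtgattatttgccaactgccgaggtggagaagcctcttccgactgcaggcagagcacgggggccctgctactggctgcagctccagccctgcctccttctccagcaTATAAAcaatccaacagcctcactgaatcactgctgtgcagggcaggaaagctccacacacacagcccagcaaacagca

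The 3 windows cover chr7:99784135-99784434, chr7:99679947-99680246 and chr7:99735147-99735446 of GRCh38.p14. Both strands were searched for the everted repeat, spelled TGAACTNNNNNNAGGTCA, and it stood in CYP3A4 from 169 to 152 bases before the start and in CYP3A5 from 113 to 96 bases before it. Of 35116 RefSeq promoters of this length 3 held it (0.00854%), and the third was ITGB1BP2. The arms searched are those of the CYP3A4 element itself, so that the CYP3A4 match was fixed in advance. The window of CYP3A43 held neither the repeat nor AGGTCA nor TATAAA. The CYP3A7 window had the arm AGGTCA, which is a part of the repeat, from 156 to 151 bases before the start. Before it, at the same spacing, stood TTAACT, which differs from the arm TGAACT in its second letter. The search took exact matches only and did not count this near match. The letters AGGTCA occur in 13.8% of all promoters and in 13 of the 35 members with a promoter in the table (37.1%). TATAAA stood 29 to 24 bases before the start in CYP3A4 and CYP3A7, and it occurs in 11.5% of all promoters and in 15 of the 35 members (42.9%). The C/EBP letters TTGCNNAA, searched on both strands, occur in 10.5% of all promoters and in 3 of the 35 members, CYP19A1, CYP26B1 and CYP2B6. The shares of all promoters count single windows, of which a gene may have several. The member shares count a gene once if any of its windows matched. A member can thus have more chances of a match, and the shares are not measured alike. Aligned end to end, the CYP3A4 and CYP3A7 windows were identical in 282 of 301 columns (93.7%), and those of CYP3A4 and CYP3A5 in 208 of 359 (57.9%). Columns with a gap count as not identical. The second alignment held many of them, so that 57.9% is not the share of paired bases that match. A match in letters describes the window and is no evidence of binding in these cells.

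CYP2E1, which oxidizes ethanol and acetaminophen, went the other way and was the largest rise among the members. Its libraries held 0.418 and 0.314 CPM (0 min), 0.317 and 0.287 (5 min), 0.268 and 0.469 (10 min), 0.251 and 0.194 (30 min) and 0.960 and 0.736 (240 min), or 24 and 14 reads at 240 min against 4 to 14 elsewhere. In CPM the late libraries stood above all others. The log2 fold change was 1.29 (SE 0.366, adjusted p = 0.00837). The call against 0 min was lost without replicate 2 at 0 min (1.03, adjusted p = 0.144) and without replicate 1 at 240 min (1.06, adjusted p = 0.126), and the adjusted p ran from 0.00349 to 0.151 over the 10 alternatives that keep every library. Over these the log2 value ran from 0.87, with limma on log2(TPM + 1), to 2.46, with limma on log2(TPM + 0.1), so that its size is loose. CYP2D7, a copy of CYP2D6 usually regarded as a pseudogene, had 0.331 ± 0.00849 CPM (SD, n = 2) at 0 min and 0.489 ± 0.126 CPM (SD, n = 2) at 240 min and a log2 fold change of 0.52 (SE 0.408, adjusted p = 0.355), with 28.1% of its windows shared, mostly with CYP2D6.

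The fatty acid and eicosanoid enzymes (12 members, 7 tested) had 4 rises, CYP2U1, CYP4F2, CYP4V2 and CYP4F11, and 1 fall, CYP2J2, while CYP4F3 and CYP4F12 were not called. CYP2U1 hydroxylates long-chain fatty acids such as arachidonic acid near their end, and its libraries held 10.3 and 10.9 CPM (0 min), 11.8 and 13.5 (5 min), 11.1 and 10.1 (10 min), 11.3 and 11.7 (30 min) and 16.8 and 16.6 (240 min). The late libraries were well above the rest. Its mean was 10.6 ± 0.481 CPM (SD, n = 2) at 0 min and 16.7 ± 0.152 CPM (SD, n = 2) at 240 min, and its log2 fold change was 0.65 (SE 0.0951, adjusted p = 2.11e-05), the smallest adjusted p among the members. CYP2J2, which turns arachidonic acid into epoxides, held 13.6 and 11.6 CPM (0 min), 11.4 and 13.4 (5 min), 11.5 and 10.9 (10 min), 11.3 and 9.08 (30 min) and 8.60 and 7.36 (240 min). Its late libraries were the lowest, and the second library at 30 min came closest to them. CYP2J2 had a log2 fold change of -0.63 (SE 0.128, adjusted p = 0.000641), and against 0 min it passed in every setting tried.

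The 6 CYP4F genes of the rule lie within 426.3 kb on chromosome 19 of hg19, and the 4 tested ones did not move alike. CYP4F2, which hydroxylates arachidonic acid and the side chains of vitamins E and K, held 14.5 and 13.2 CPM (0 min), 12.5 and 13.2 (5 min), 15.1 and 14.2 (10 min), 15.2 and 11.8 (30 min) and 21.1 and 18.98 (240 min). The late libraries were the highest by a wide margin. Its mean was 13.8 ± 0.965 CPM (SD, n = 2) at 0 min and 20.1 ± 1.53 CPM (SD, n = 2) at 240 min, and its log2 fold change was 0.55 (SE 0.104, adjusted p = 0.000289), lost under ERCC scaling alone among the settings that keep every library. CYP4F11, a vitamin K and fatty acid hydroxylase, held 37.2 and 36.6 CPM (0 min), 35.9 and 35.7 (5 min), 36.4 and 37.3 (10 min), 37.6 and 38.7 (30 min) and 41.7 and 41.7 (240 min). Its replicates agreed closely, and the late libraries were just above the others. CYP4F11 had a log2 fold change of 0.18 (SE 0.0577, adjusted p = 0.0178). The call was lost when any 1 of the 4 libraries compared was left out, with values of 0.16 to 0.19. It was also lost with DESeq2 (0.17, adjusted p = 0.0898) and with ERCC scaling (0.06, adjusted p = 0.895).

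CYP4F3, which inactivates leukotriene B4, had 18.6 ± 2.06 CPM (SD, n = 2) at 0 min and 18.9 ± 2.46 CPM (SD, n = 2) at 240 min (log2 fold change 0.02, SE 0.104, adjusted p = 0.903). CYP4F12 had 16.5 ± 0.365 CPM (SD, n = 2) at 0 min and 15.4 ± 2.76 CPM (SD, n = 2) at 240 min (log2 fold change -0.08, SE 0.124, adjusted p = 0.619). Neither passed the test. The ratio of CYP4F2 to CYP4F3 counts within a library, which does not depend on the scaling, was 1.02 and 1.10 at 240 min and 0.586 to 0.848 in the other 8 libraries. The ratio of CYP4F2 to CYP4F12 was 1.22 and 1.42 at 240 min and 0.811 to 0.908 in the others. The late libraries were outside the range of the others in both ratios. The ratio of CYP4F11 to CYP4F3 was 2.02 and 2.43 at 240 min and 1.58 to 2.17 in the others, which overlapped. CYP4F2 and CYP4F3 are near copies over part of their length, and 12.3% of the CYP4F2 windows and 8.64% of the CYP4F3 windows are shared with other genes. CYP4V2, a fatty acid hydroxylase of many tissues that is mutated in a crystalline eye disease, held 14.9 and 18.3 CPM (0 min), 20.3 and 18.3 (5 min), 17.9 and 18.7 (10 min), 18.3 and 19.96 (30 min) and 21.7 and 21.5 (240 min). Its late libraries were the highest, with the first library at 0 min the lowest of all. CYP4V2 had a log2 fold change of 0.36 (SE 0.0934, adjusted p = 0.00466), and without that library it was 0.24 (adjusted p = 0.0649) and no longer called.

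Of the vitamin A and D enzymes (7 members, 4 tested), the pair at the ends of the vitamin D pathway rose. CYP2R1 makes 25-hydroxyvitamin D in the liver, and it held 1.11 and 0.651 CPM (0 min), 0.871 and 0.814 (5 min), 1.11 and 0.809 (10 min), 0.933 and 1.02 (30 min) and 1.48 and 1.37 (240 min). The late libraries were the highest, and the 2 libraries at 0 min were far apart. Its log2 fold change was 0.80 (SE 0.292, adjusted p = 0.0336). The call was lost without replicate 2 at 0 min (0.36, adjusted p = 0.488), without replicate 1 at 240 min (0.74, adjusted p = 0.167) and without replicate 2 at 240 min (0.85, adjusted p = 0.0699), and the adjusted p ran from 0.0186 to 0.255 over the 12 alternatives that keep every library. CYP24A1, which degrades active vitamin D and is a classic target of its receptor VDR, held 3.94 and 3.73 CPM (0 min), 4.12 and 3.92 (5 min), 4.67 and 5.54 (10 min), 3.63 and 5.00 (30 min) and 6.24 and 6.94 (240 min). Its late libraries were above all others, with both 10 min libraries and 1 at 30 min in between. The log2 fold change of CYP24A1 was 0.78 (SE 0.154, adjusted p = 0.000451), and leaving out any 1 library compared kept the call.

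CYP27B1, which makes the active hormone, had 1.57 ± 0.0605 CPM (SD, n = 2) at 0 min and 1.36 ± 0.219 CPM (SD, n = 2) at 240 min and a log2 fold change of -0.20 (SE 0.269, adjusted p = 0.591). CYP26B1, which degrades retinoic acid, had 0.457 ± 0.0751 CPM (SD, n = 2) at 0 min and 0.463 ± 0.0891 CPM (SD, n = 2) at 240 min and a log2 fold change of 0.05 (SE 0.390, adjusted p = 0.938). Neither passed the test, and their groups overlapped in the libraries as a whole.

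The 2 tested sterol and bile acid enzymes of 3 members were not called. CYP7B1, which hydroxylates oxysterols, had 0.752 ± 0.0794 CPM (SD, n = 2) at 0 min and 0.887 ± 0.0102 CPM (SD, n = 2) at 240 min and a log2 fold change of 0.20 (SE 0.297, adjusted p = 0.634). CYP39A1, which acts on 24-hydroxycholesterol, had 0.341 ± 0.0889 CPM (SD, n = 2) at 0 min and 0.468 ± 0.379 CPM (SD, n = 2) at 240 min and a log2 fold change of 0.26 (SE 0.528, adjusted p = 0.724). Both were under 1 CPM, where the standard errors leave room for changes of the size called elsewhere.

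Among the steroid hormone enzymes (6 members, 4 tested), CYP19A1 and CYP21A2 fell and CYP11A1 and CYP17A1 were not called. CYP19A1 is aromatase, which turns androgens into estrogens, and it held 13.9 and 13.3 CPM (0 min), 13.5 and 15.3 (5 min), 14.1 and 13.1 (10 min), 13.1 and 11.2 (30 min) and 10.7 and 9.78 (240 min). The late libraries were the lowest, close to the second library at 30 min. Its mean was 13.6 ± 0.428 CPM (SD, n = 2) at 0 min and 10.2 ± 0.660 CPM (SD, n = 2) at 240 min, and its log2 fold change was -0.40 (SE 0.106, adjusted p = 0.00514), with an adjusted p from 0.00106 to 0.108 over the 12 alternatives that keep every library. CYP21A2, the adrenal 21-hydroxylase, held 0.650 and 0.808 CPM (0 min), 0.713 and 0.814 (5 min), 0.688 and 0.596 (10 min), 1.01 and 1.02 (30 min) and 0.240 and 0.473 (240 min), or 6 and 9 reads at 240 min against 14 to 36 elsewhere. In CPM its late libraries were the lowest and both 30 min libraries the highest. In TPM the late libraries were also the lowest, at 0.757 and 2.39. The 30 min libraries, at 3.21 and 3.10 TPM, lay below those at 0 and 5 min (3.69 to 5.57 TPM), so that the 30 min height was seen in counts alone. On hg19 the span of CYP21A2 overlaps STK19, C4B, C4B_2, CYP21A1P and MIR7641-2 on the same strand, and how reads were assigned was not tested.

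The log2 fold change of CYP21A2 was -1.13 (SE 0.387, adjusted p = 0.0254), and it was not called without replicate 2 at 0 min (-0.92, adjusted p = 0.220) or without replicate 1 at 240 min (-0.66, adjusted p = 0.320), with an adjusted p from 0.0156 to 0.160 over the 11 alternatives that keep every library. Of its windows 34.1% are shared with other genes, the pseudogene CYP21A1P among them, which had 3 counts in each library at 240 min and 4 to 17 elsewhere, so that the value of CYP21A2 is uncertain. CYP11A1, the mitochondrial enzyme that starts steroid synthesis from cholesterol, had 0.513 ± 0.0688 CPM (SD, n = 2) at 0 min and 0.888 ± 0.214 CPM (SD, n = 2) at 240 min and a log2 fold change of 0.77 (SE 0.319, adjusted p = 0.0600), just outside the threshold, and it was called when genes needed at least 10 counts in every library. CYP17A1, the 17-hydroxylase, had 3.16 ± 0.460 CPM (SD, n = 2) at 0 min and 3.32 ± 1.64 CPM (SD, n = 2) at 240 min and a log2 fold change of 0.09 (SE 0.244, adjusted p = 0.809), with replicates at 240 min that lay on either side of all others. The markers of adrenal or gonadal steroid cells in the same libraries were uneven: NR5A1 was at 48.3 to 56.4 TPM and STAR at 2.23 to 3.35 TPM, while HSD3B1 was listed at 0 and HSD3B2 reached 0.159 TPM at most.

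Of the enzymes with less settled roles (5 members, 3 tested), CYP2S1 fell. It held 8.72 and 8.98 CPM (0 min), 7.20 and 6.32 (5 min), 6.998 and 9.24 (10 min), 6.93 and 9.28 (30 min) and 4.72 and 6.68 (240 min). One of the late libraries was the lowest of all, and the other lay within the range of the 5 min libraries, so that the groups overlapped. The log2 fold change of CYP2S1 against 0 min was -0.66 (SE 0.167, adjusted p = 0.00350), and without replicate 1 at 240 min it was -0.41 and no longer called. Its adjusted p ran from 2.15e-06 to 0.112 over the 12 alternatives that keep every library, and the 3 limma fits on TPM lost the call. CYP20A1, an orphan enzyme with no settled substrate and the most counts of any member, had 68.2 ± 4.06 CPM (SD, n = 2) at 0 min and 75.5 ± 5.06 CPM (SD, n = 2) at 240 min and a log2 fold change of 0.14 (SE 0.0779, adjusted p = 0.168). CYP2W1 had 25.6 ± 0.365 CPM (SD, n = 2) at 0 min and 26.5 ± 0.771 CPM (SD, n = 2) at 240 min and a log2 fold change of 0.06 (SE 0.0752, adjusted p = 0.586). These 2 abundant genes had standard errors under 0.1, and neither passed the test.

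A comparison of 240 min with 30 min, both after insulin, called 9 of the 26 members (34.6%), with 4 higher and 5 lower. The background was 38.2% of all genes tested, with 19.8% higher and 18.4% lower, and the median of the members was 0.12 beside -0.00015 for all genes. It shares its 240 min libraries with the comparison above, so that its values are set beside the earlier ones only as a description. CYP2E1 rose by 1.90 (SE 0.431, adjusted p = 0.00165), CYP24A1 by 0.63 (SE 0.159, adjusted p = 0.00386), CYP4F2 by 0.56 (SE 0.107, adjusted p = 0.000341) and CYP2U1 by 0.55 (SE 0.0976, adjusted p = 0.000179). On the lower side CYP21A2 was at -1.55 (SE 0.382, adjusted p = 0.00316), CYP3A7 at -0.89 (SE 0.270, adjusted p = 0.0133) and CYP3A5 at -0.68 (SE 0.111, adjusted p = 7.51e-05). CYP2S1 at -0.51 (SE 0.176, adjusted p = 0.0265) and CYP2J2 at -0.36 (SE 0.135, adjusted p = 0.0432) also passed. Of the 12 alternatives that keep every library, 8 kept this call of CYP2S1 and 6 that of CYP2J2.

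Members called against 0 min but not against 30 min were CYP3A4 at -0.86 (SE 0.376, adjusted p = 0.0804), CYP2R1 at 0.55 (SE 0.298, adjusted p = 0.154), CYP4V2 at 0.18 (SE 0.0951, adjusted p = 0.143), CYP4F11 at 0.13 (SE 0.0588, adjusted p = 0.0862) and CYP19A1 at -0.25 (SE 0.110, adjusted p = 0.0815). Whether these changes differ between the comparisons was not tested. Without replicate 1 at 240 min or without replicate 1 at 30 min 6 members were called. The first lost CYP2S1 (-0.26), CYP21A2 (-1.09) and CYP3A7 (-0.78), and the second lost CYP2J2 (-0.18), CYP24A1 (0.39) and CYP3A7 (-0.92). Without replicate 2 at 30 min CYP2S1 (-0.31) and CYP3A7 (-0.87) were lost, and without replicate 2 at 240 min CYP2J2 (-0.26). Upper-quartile scaling gave 5 higher and 4 lower in place of 4 and 5, and ERCC scaling 1 higher and 2 lower. With limma on log2(TPM + 1) CYP21A2 was at -0.77 (adjusted p = 0.138) and CYP2E1 at 0.92 (adjusted p = 0.0296).

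**Figure D3:**
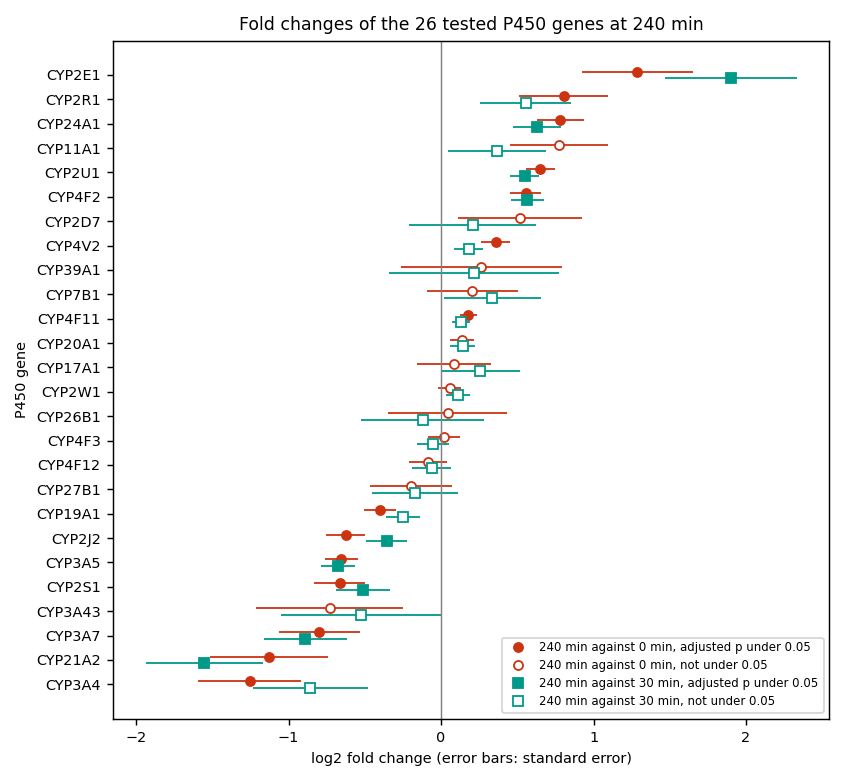
Log2 fold change (horizontal axis) with its standard error as a bar for the 26 tested P450 genes, at 240 min against 0 min (circles) and against 30 min (squares), with filled symbols for an adjusted p under 0.05. CYP2E1 lies farthest to the right at 1.29 and 1.90, CYP3A4 at -1.25 and CYP21A2 at -1.55 lie farthest to the left, and CYP4F3 lies near 0.

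Of 9 tested redox partners, the proteins that supply P450s with electrons or bind them, 3 were higher at 240 min, 2 lower and 4 not called, with a median log2 fold change of 0.0060. Of all genes tested 41.0% were called, 20.6% higher and 20.4% lower, with a median of -0.0026, and these are the background for each of the 4 lists described here. FDX1, the mitochondrial ferredoxin that serves CYP24A1, CYP27B1 and CYP11A1, rose from 16.3 ± 0.507 CPM (SD, n = 2) to 22.8 ± 0.267 CPM (SD, n = 2), a log2 fold change of 0.49 (SE 0.0900, adjusted p = 0.000251). Its reductase FDXR fell by 0.23 on the log2 scale (SE 0.0754, adjusted p = 0.0212), and POR, the reductase of the microsomal enzymes, fell by 0.19 (SE 0.0576, adjusted p = 0.0114) from 220.7 ± 8.78 CPM to 193 ± 8.45 CPM (SD, n = 2). The cytochromes CYB5B at 0.19 and CYB5A at 0.15 were the other rises. Without replicate 2 at 0 min 1 of the 9 was called, without either 240 min replicate 3, and with ERCC scaling 0. The 3 limma fits on TPM called 4 of the 9, all higher, so that the falls of FDXR and POR were not called there.

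Heme is the cofactor of each P450, and its synthesis and breakdown list had 4 rises, 3 falls and 4 genes not called of 11, with a median of 0.037, beside the 41.0% of all genes called. HMOX1, which breaks heme down, rose from 13.5 ± 0.135 CPM to 24.7 ± 1.01 CPM (SD, n = 2), a log2 fold change of 0.87 (SE 0.0914, adjusted p = 4.57e-07). FECH, which inserts the iron, rose by 0.50 (SE 0.0653, adjusted p = 6.11e-06), and PPOX, which acts just before it, fell by 0.63 (SE 0.176, adjusted p = 0.00696). ALAS1, the first and limiting step in liver, was at 0.36 and UROS at 0.34, while ALAD at -0.40 and CPOX at -0.25 were lower. ERCC scaling left 2 calls.

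Regulators of P450 genes numbered 18, of which 4 rose, 4 fell and 10 were not called, with a median of -0.031, a share near the 41.0% of all genes called and split as evenly. CEBPA, a factor of hepatocyte differentiation, rose from 18.5 ± 0.524 CPM to 40.4 ± 2.18 CPM (SD, n = 2), a log2 fold change of 1.12 (SE 0.0882, adjusted p = 1.31e-08). TEF, a clock-output factor of the PAR family, rose by 0.69 (SE 0.100, adjusted p = 1.88e-05), and the retinoid X receptor RXRB fell by 0.91 (SE 0.0636, adjusted p = 3.52e-09). NR0B2, the repressor also known as SHP, was lower at -0.67, HNF4A at 0.30 was higher, and NFIL3 at -0.17 and HLF at -0.16 were lower. The receptors that carry the xenobiotic response were not called: NR1I2 had 36.9 ± 1.19 CPM at 0 min and 36.0 ± 2.09 CPM at 240 min (SD, n = 2), a log2 fold change of -0.033 (SE 0.0648, adjusted p = 0.715), and NR1I3 had group means under 1 CPM. VDR, the vitamin D receptor, was at 0.44 (SE 0.197, adjusted p = 0.0831). Of the 18, 5 were called without replicate 2 at 0 min, 3 with ERCC scaling and 5 with each limma fit.

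The retinoid list, read beside CYP26B1, had 11 of 17 genes tested, with 2 rises, 2 falls and 7 not called and a median of -0.065, beside the 41.0% of all genes called. DHRS3, which turns retinal back into retinol, fell from 38.1 ± 1.33 CPM to 20.3 ± 1.13 CPM (SD, n = 2), a log2 fold change of -0.91 (SE 0.0836, adjusted p = 8.31e-08). RDH10, which makes retinal, fell by 0.36 (SE 0.0582, adjusted p = 6.91e-05), and RDH11 rose by 0.23 (SE 0.0568, adjusted p = 0.00278). The other rise was CRABP2, a carrier of retinoic acid with a mean of 0.729 CPM. ERCC scaling left 2 of these calls.

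**Figure D4:**
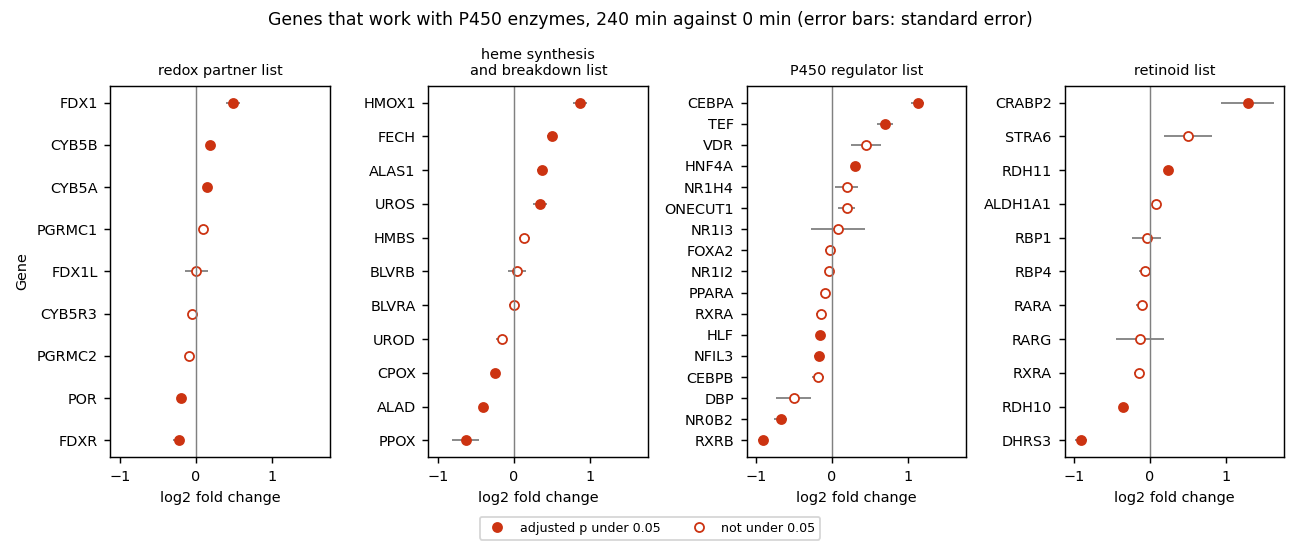
Log2 fold change at 240 min against 0 min (horizontal axis) with its standard error as a bar for tested genes of 4 lists that surround P450 function (1 regulator is not drawn), with filled symbols for an adjusted p under 0.05. HMOX1 at 0.87, CEBPA at 1.12 and CRABP2 at 1.28 are the highest of their lists, and PPOX at -0.63, RXRB at -0.91 and DHRS3 at -0.91 the lowest.

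IR ChIP-seq peaks were rare at the members. A peak within 5 kb of the gene body was found for 1 of 49 members (2.04%), beside 9.54% of 26804 gene rows of the abundance table. This peak lay at chr14:100196771-100197101 of hg19, 3133 bases past the end of CYP46A1, the cholesterol 24-hydroxylase of brain, which had 2 counts in all and was not tested. Its score was 69, rank 1078 of 1971 peaks with a median score of 79. None of the 14 called members had a peak in this window in the 1 library, which has no replicate.

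Of the 7 P450 genes outside the rule 6 were tested at 240 min against 0 min, and 4 were called higher and 2 lower. Beside them, 41.0% of all genes tested were called, 20.6% higher and 20.4% lower. CYP1A1 was at 2.29, CYP1A2 at 1.80, CYP7A1 at 0.48, CYP51A1 at 0.25, CYP27A1 at -0.33 and CYP8B1 at -0.38 on the log2 scale. CYP1A1 and CYP1A2 therefore lay above the highest member, CYP2E1 at 1.29, and no test of that difference was made.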

How the data were processed

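For the RNA-seq, the authors trimmed single-end reads with Trim Galore 0.6.4, aligned them to hg19 with STAR 2.6.1d, marked duplicates and counted reads per gene with featureCounts 1.6.4 set to reverse-stranded. The authors deposited raw counts per gene and StringTie abundances in TPM. IR ChIP-seq reads were aligned by the authors with BWA 0.7.17-r1188. The authors called peaks with MACS2 2.2.7.1 and deposited peaks annotated by HOMER with a score each.

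Here, counts were tested with edgeR 4.0.16 (R 4.3.3), using TMM factors, filterByExpr grouped by time and a two-sided quasi-likelihood F test in 1 model of the 10 libraries. Benjamini-Hochberg adjustment ran over all 13852 genes tested, and an adjusted p-value under 0.05 was a call. Standard errors were the fold change divided by the root of F. The 92 ERCC rows (1.59% to 2.36% of counts) entered neither library sizes nor tests. Means and SDs are of CPM within a time and of TPM over the 10 libraries. Alternatives were DESeq2 1.42.0, RLE, upper-quartile and ERCC scaling, low-count filters of none and of 10 counts per library, the compared times alone, a replicate block, a likelihood ratio test, and limma 3.58.1 run on log2(TPM + 1), on log2(TPM + 0.1) and over genes whose mean TPM was 1 or more, and each replicate left out in turn.

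Members passing the filter are named with their level, members called also with every library, and the others by their counts. Of the lists, called genes averaging 5 CPM or more and the 3 largest changes are named. CRABP2, NR1I2, NR1I3 and VDR were named after their values were seen. One member and 1 gene of a list count in the totals and are not reported here by name. The members and lists were chosen with earlier results of these data known. Shared 50-base windows were counted over GENCODE transcripts of GRCh37, and promoters came from the RefSeq table (35 of 49 members matched), with Biopython 1.88, pandas 2.3.3 and numpy 2.4.6 in Python 3.11.15, and figures from matplotlib 3.10.9.

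The edgeR step was tested on simulated data for 240 min against 0 min with 200 changed genes among 13730. It called 200, of which 180 were changed, and recovered 80%, 88%, 94% and 98% of changes of 1.5, 2, 3 and 4 times. The false share of the calls, 10%, was above the 0.05 of the threshold. The share of changed genes was far below the 41.0% called in the data. Recovery was not split by level, so that it does not speak for members with few reads.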

Additional observations from a re-analysis of the deposited data

How the results depend on the processing

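No fold change of a called member reversed in any alternative tried, and over both 240 min comparisons 283 fits of single called members kept the call and 77 lost it with the direction kept. The members called at 240 min against 0 min were 14 in the fit reported, 8 with DESeq2, 4 with ERCC scaling, 9 when limma used log2(TPM + 1), 8 when it used log2(TPM + 0.1) and 7 to 12 with 1 replicate left out. Against 30 min they were 9 in the fit reported, 3 with ERCC scaling, 5 and 4 with limma at the larger and smaller pseudocount, 5 with a mean TPM of at least 1 and 6 to 9 with 1 replicate left out. CYP2J2 and CYP3A5 were called against 0 min in each of the 12 alternatives that keep every library. ERCC scaling gave 0 calls among the redox partners, 2 in the heme list, 3 among the regulators and 2 in the retinoid list, and the 3 limma fits gave 5 among the regulators. With 1 replicate left out the redox partners had 1 to 4 calls, the heme list 5 to 7, the regulators 5 to 7 and the retinoid list 3 to 4. At 5, 10 and 30 min each alternative called 0 members. Beyond the construction of each alternative, the causes were not tested. Replicate differences of 2 times correlated at -0.232 to 0.198 over genes. These weak values of both signs showed no clear pairing by replicate number and cannot exclude one. With the replicate block 15 members were called against 0 min and 10 against 30 min, with CYP20A1 added in both.

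With 2 replicates per time, a library left out leaves its time with a lone library assumed to vary like the others. Members under about 1 CPM, such as CYP3A4, CYP2E1 and CYP21A2, rest on few reads, and for the 23 members not tested these files show no direction.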
